A study of Mus musculus with 16 samples.

Results

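Partially reprogrammed nuclear transfer embryonic stem cell lines (AN P) and partially reprogrammed induced pluripotent stem cell lines (AI P) were compared by RNA-seq. A line was called partially reprogrammed by the study when it failed tetraploid complementation, an assay in which the tested cells alone have to form the animal because the host blastocyst is tetraploid. The comparison took the P lines, 8 of the 16 lines analysed here. They were 5 nuclear transfer lines, named AN2, AN3, AN5, AN6 and AN7, and 3 induced lines, named AI9, GS4 and GS9. The fully reprogrammed lines, 4 AN F (AN1, AN9, AN15 and AN20) and 4 AI F (AI3, AI7, AI10 and GS32), were used only to ask whether a difference between AN P and AI P was also there between AN F and AI F. All lines carried the strain label 129-M2rtTA and came from adipocyte progenitor cells of mice made entirely from an iPSC line, so that AN and AI lines shared the same doxycycline-inducible reprogramming insertions. AN lines were derived by transfer of the progenitor nuclei into enucleated B6D2F1 oocytes, and AI lines by addition of doxycycline. AI9 was derived with the other AI lines for the study, whereas GS4, GS9 and GS32 had been derived before it. Passage was 5 to 7 in the AN P lines, 7 in AI9, 17 in GS4 and 6 in GS9. There was 1 library per line, so the line is the replicate. For GS9 and GS32 the sample records name GS4 as the source, against their titles, and the values below rest on the titles.

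Both routes return a somatic genome to a pluripotent state. In nuclear transfer the factors of the oocyte do this within the first cell cycles of an embryo, and in induced reprogramming forced expression of Pou5f1, Sox2, Klf4 and Myc does it over many divisions. Imprinted genes are expressed from 1 parental allele, and the alleles are told apart by DNA methylation set in the germline of 1 parent. In the Dlk1-Dio3 domain on chromosome 12, the noncoding RNAs Meg3 (also called Gtl2), Rian and Mirg come from the maternal allele, and the protein-coding genes Dlk1, Rtl1 and Dio3 from the paternal one. Loss of Meg3 and Rian is known as a frequent imprinting defect of mouse iPSC lines that fail tetraploid complementation. Pluripotent lines are grown on or started from fibroblast feeder cells, whose RNA can be part of a bulk library.

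The deposited values are FPKM (fragments per kilobase of transcript, scaled to the mapped reads of the library), and differences are given on the log2(FPKM + 1) scale. Of 22552 genes in the table, 11992 averaged 1 FPKM or more across these lines, and 11760 were tested after 232 small RNA gene names were left out. Depth relative to AN2, read from the step between the lowest values, ranged from 0.990 to 1.30 in the 8 lines. The FPKM of all genes summed to 672016 to 963434, of which small RNA gene names took 16.7% to 23.3%. Markers of pluripotent cells were high in all 8 lines: Pou5f1 lay between 657 and 1222 FPKM and Dppa5a between 897 and 1700 FPKM. Fibroblast markers were present in all 8 as well, with Col1a1 between 27.4 and 226 FPKM. Among trophoblast markers Elf5 was at no more than 0.079 FPKM, but 12 of 20 in the table averaged 1 FPKM or more, and the list summed to 1247 FPKM in AN6 and 55.3 to 281 FPKM in the other lines, mostly from keratins. Among primitive endoderm markers Sox7 was at no more than 0.468 FPKM, but 12 of 24 averaged 1 FPKM or more, and the list summed to 710 to 1232 FPKM, with Sparc and Apoe highest.

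The lines did not fall into an AN and an AI group. AI9 correlated best with AN3 (r = 0.995 over the 11760 genes), and 69.0% of its values lay within the range of the 5 AN P lines, against 38.7% for GS4 and 40.9% for GS9. Relative to the AN P mean, 5 genes were over 2-fold higher and 16 over 2-fold lower in AI9. In GS4, 169 were higher and 268 lower, and in GS9, 99 were higher and 232 lower. Among the AN P lines, AN6 stood apart, with 199 genes over 2-fold above and 83 below the mean of the other AN P lines, while AN2 and AN5 had 4 above each. GS4 and GS9, the lines derived earlier, correlated with each other (r = 0.969) less than each did with AN2 (r = 0.979 and 0.977). In bulk RNA, fewer cells of a type and less RNA per cell cannot be told apart, which holds for every list of cell type markers below.

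**Figure D1:**
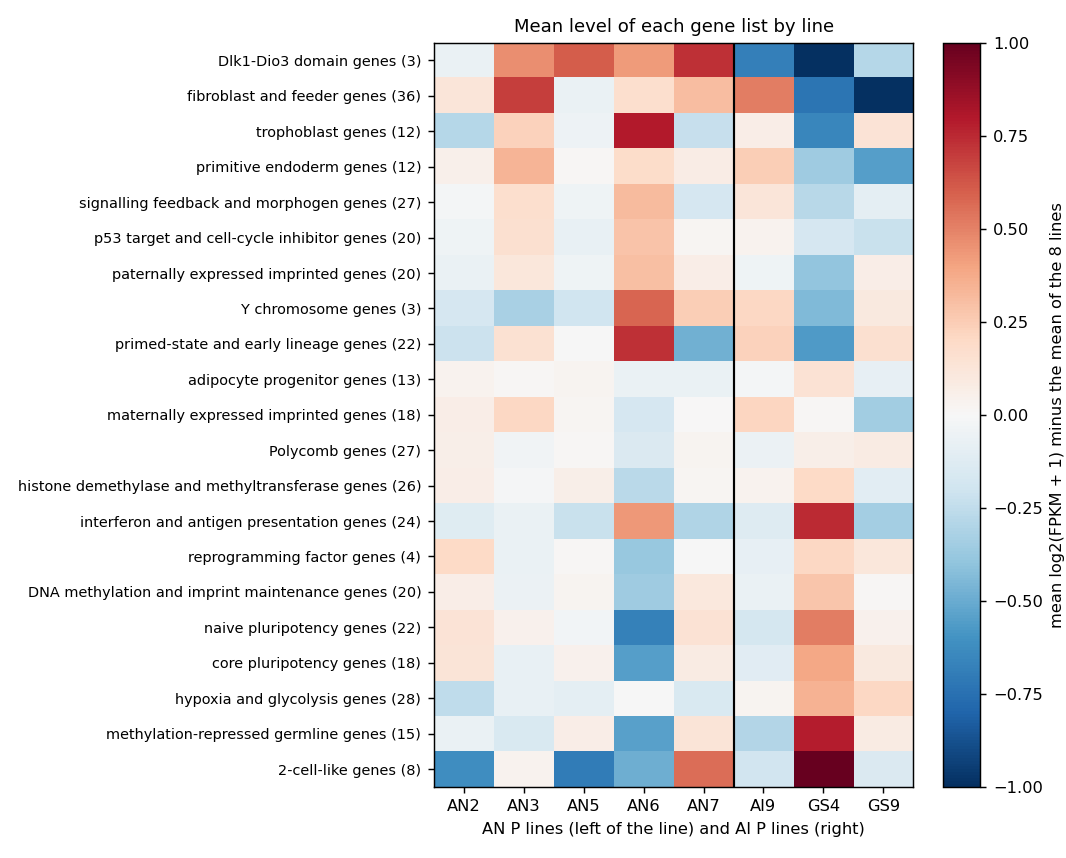
Mean log2(FPKM + 1) of the tested members of each gene list (number in brackets) in each of the 8 lines, minus the mean of the 8 lines; red is higher and blue lower, and the colours end at -1 and 1. The 3 AI P lines right of the black line share low Dlk1-Dio3 genes, while GS4 and GS9 alone are low for fibroblast genes, AN6 is low for naive pluripotency genes and GS4 is high for 2-cell-like genes.

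None of the genes tested separated AN P from AI P after adjustment. In limma's test with Benjamini-Hochberg adjustment, 0 of 11760 genes (percent called: 0) had an adjusted p under 0.05, and the lowest adjusted p was 0.734. Before adjustment, 378 genes (3.21%) had p under 0.05 with AN P higher and 264 (2.24%) with AN P lower. In 192 genes (1.63%) every AN P line lay above every AI P line, and in 201 (1.71%) every AN P line lay below. Groups of 5 and 3 lines can separate fully by chance, so these counts alone do not show genes that differ. The count of 0 genes turned on AI9. Without AI9 (AN P against GS4 and GS9), 141 genes (1.2%) were higher and 32 (0.272%) lower in AN P at an adjusted p under 0.05, and the lowest adjusted p was 0.0188. AI9 itself lay within the AN P range for 106 of the 141 and 20 of the 32, near its share over all genes (69.0%). Without any other single line, 0 genes passed. Against AI9 alone, 0 genes passed either, and before adjustment 209 genes had p under 0.05 with AN P higher and 76 with AN P lower.

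The Dlk1-Dio3 domain held Meg3, the gene with the smallest p among genes whose groups did not overlap. The noncoding genes of the domain were below the AN P mean in each of the 3 AI P lines. Meg3 (mm9 chr12:110779211-110809936, plus strand) was at 69.6, 115, 141, 119 and 134 FPKM in the AN P lines, in the order given above. It was at 42.0, 27.7 and 53.3 FPKM in AI9, GS4 and GS9. The groups did not overlap, and the mean was 2.83-fold higher in AN P, with a log2 difference of 1.48 ± 0.26 (SE, adjusted p = 0.734 in limma's test). Rian (chr12:110842155-110899919, plus strand) was at 82.3, 140, 156, 150 and 184 FPKM in the same AN P lines. In AI9, GS4 and GS9 it was at 46.7, 29.4 and 86.2 FPKM, so that GS9 lay just above AN2. The log2 difference was 1.47 ± 0.34 (SE, adjusted p = 0.734). Both noncoding genes hold small RNA genes within them (Mir770 and Mir1906-1 in Meg3, Mir341, Mir370 and Mir1188 in Rian), which could share reads with them.

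Mirg, the noncoding gene downstream, was not tested because its name falls under the small RNA rule, although it is a long noncoding RNA. It was at 6.66, 12.3, 14.2, 12.4 and 14.2 FPKM in the AN P lines, and at 2.38, 2.43 and 6.45 FPKM in AI9, GS4 and GS9, all below AN2. Of the paternal genes, Dlk1, which encodes a transmembrane Notch-like ligand, was low in all lines, with a mean of 2.46 ± 0.39 FPKM (SD, n = 5) in AN P and 1.44 ± 0.28 FPKM (SD, n = 3) in AI P. Every AN P line was above every AI P line (log2 difference 0.51 ± 0.14, SE, adjusted p = 0.734). Rtl1, a retrotransposon-derived gene needed in the placenta, was under the filter at 0.553 to 1.31 FPKM in AN P and 0.249 to 0.338 FPKM in AI P. It overlaps 6 antisense microRNA genes, and the counting is not stated to use strand. Dio3 and Begain, at the ends of the domain, overlapped between the groups. Maternal and paternal genes of the domain thus had lower means in AI P, and AN2 was the AN P line nearest to them for Meg3, Rian, Mirg and Rtl1.

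Meg3 did not pass adjustment, but its groups did not overlap, and its promoter is shown for that reason. RefSeq gives 2 starts for Meg3, and the promoter printed is that of the upstream one. It covers 250 bases before to 50 bases after the start in RefSeq (GRCm38.p6, chr12:109540746-109541045, plus strand), with CG dinucleotides, the sites of DNA methylation, in capitals. The 300 bases hold 13 CG. The median over 32851 RefSeq promoters of this length is 7, and 62.1% hold fewer than 13. The second promoter (chr12:109545148-109545447) holds 1 CG. The FPKM values are per gene and do not tell the starts apart. Methylation was not analysed here.
Meg3: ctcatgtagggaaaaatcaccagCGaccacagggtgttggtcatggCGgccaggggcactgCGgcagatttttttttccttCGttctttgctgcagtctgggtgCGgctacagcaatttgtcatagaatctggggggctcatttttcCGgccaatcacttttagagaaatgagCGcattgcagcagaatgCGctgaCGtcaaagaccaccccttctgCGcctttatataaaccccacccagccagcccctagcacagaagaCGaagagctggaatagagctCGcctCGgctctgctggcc

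In the fully reprogrammed lines the differences between AN and AI were smaller for Meg3 and Rian, and of opposite sign for Dlk1. Meg3 was at 123, 87.4, 102 and 75.3 FPKM in AN1, AN9, AN15 and AN20, and at 119, 69.8, 86.5 and 92.1 FPKM in AI3, AI7, AI10 and GS32. The difference between AN and AI was thus 1.48 in P lines and 0.08 in F lines on the log2 scale, and the gap between these values, 1.41 ± 0.33 (SE), did not pass the interaction test in limma (adjusted p = 0.265). For Rian it was 1.36 ± 0.37 and for Dlk1 0.89 ± 0.25 (SE, adjusted p = 0.265 each).

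Grb10, an imprinted growth inhibitor on chromosome 11 that the study follows as a marker of the pluripotent state, showed no common direction. It was at 32.9, 23.2, 33.0, 8.89 and 18.1 FPKM in the AN P lines. AI9 was above all of them at 53.002 FPKM, and GS4 and GS9 were below at 8.28 and 6.598 FPKM. The F lines lay between 36.8 and 54.9 FPKM, so that AI9 was at their level and the other 7 P lines were below. The log2 difference between AN P and AI P was 0.50 ± 0.63 (SE, adjusted p = 0.816 in limma's test), and it was -0.02 without GS9. Of 18 tested maternally expressed imprinted genes, 9 were higher in AN P by any amount, and of 20 paternally expressed ones, 14 were. Of all genes tested, 46.4% were. The median log2 difference of the paternally expressed genes was 0.16, and 0.006 without GS4. None of the genes on these lists passed in the full comparison. Without AI9, Osbpl5 of the first list and Igf2 of the second did.

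**Figure D2:**
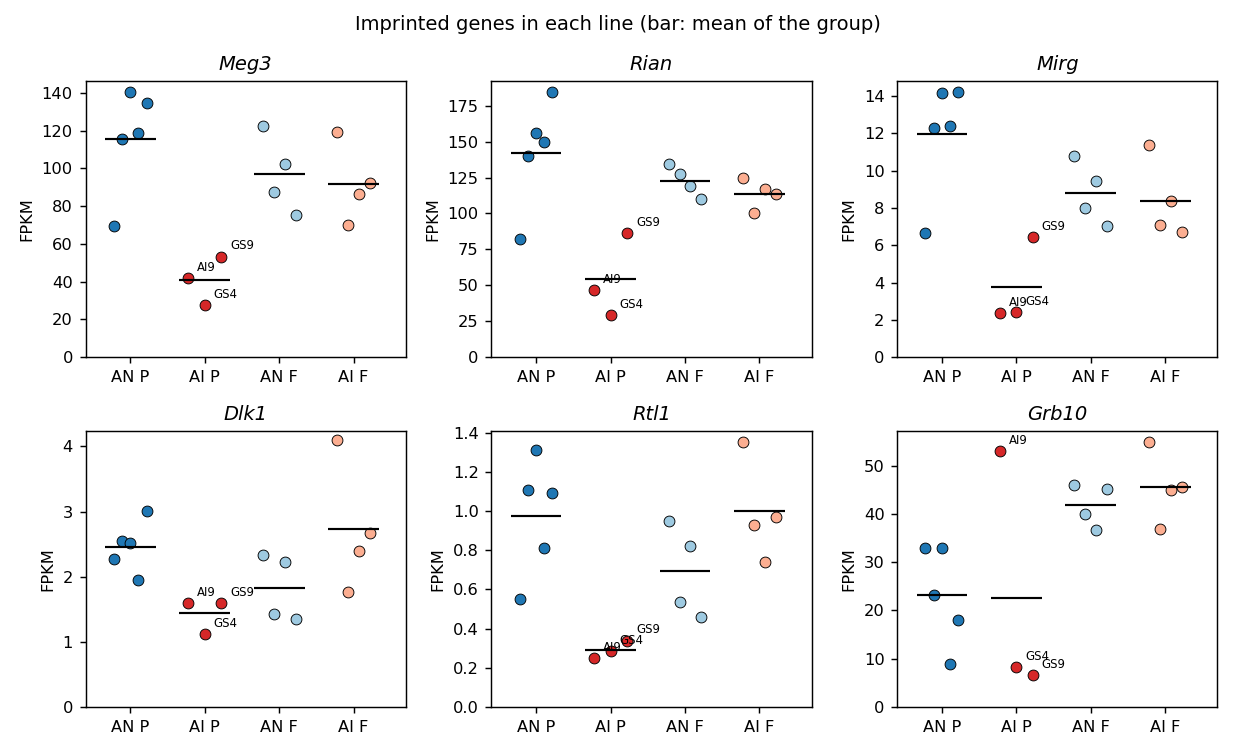
FPKM (vertical axis) of 5 Dlk1-Dio3 genes and Grb10 in each line of the 4 groups, 1 point per line and a bar at the group mean. The 3 AI P lines sit below the AN P lines for Meg3, Mirg, Dlk1 and Rtl1, whereas AI9 has the highest Grb10 value of the P lines and GS4 and GS9 the lowest.

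Beyond this domain, genes were ranked by p among those whose groups did not overlap, so separation was part of the choice. By this rule, the first gene after Meg3 was Lars2 (chr9:123276058-123371782, plus strand), the mitochondrial leucyl-tRNA synthetase. It was at 132, 108, 81.2, 93.8 and 114 FPKM in the AN P lines and at 49.9, 52.0 and 26.2 FPKM in AI9, GS4 and GS9. The log2 difference was 1.33 ± 0.23 (SE, adjusted p = 0.734 in limma's test, and 0.0454 without AI9). Lars2 was also higher on average in AN F (94.1 ± 25.3 FPKM, SD, n = 4) than in AI F (55.9 ± 10.3 FPKM, SD, n = 4), although AI7 and GS32 were the only AI F lines within the AI P range. Rpl26, a ribosomal protein gene with 3 named pseudogenes that could share its reads, was at 18.6 to 33.1 FPKM in AN P and 11.7 to 16.8 FPKM in AI P. In the F lines AN9 and AN20 reached 119 and 97.1 FPKM, above every P line. Atp6v0c, a subunit of the proton pump of lysosomes, was at 27.7 to 47.0 FPKM in AN P, 9.47 FPKM in AI9 and 19.7 and 20.5 FPKM in GS4 and GS9. Srxn1, which repairs oxidised peroxiredoxins, was at 17.0 to 24.5 FPKM in AN P and 11.6 to 14.3 FPKM in AI P.

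By the same rule, the other genes on this side were Impact, Commd9, 1110065P20Rik, Gsto1 and Fam132a, with log2 differences of 0.39 to 0.66. Impact, an imprinted inhibitor of the kinase Gcn2, was at 97.2 to 107 FPKM in AN P and 72.0 to 82.3 FPKM in AI P. Gsto1, a glutathione transferase, and Fam132a, an adipokine gene, were nearest to AN P in AI9: Gsto1 was at 79.9 FPKM there, 49.8 in GS4 and 53.2 in GS9, against 82.0 to 107 FPKM in AN P. None of these 10 genes passed in the full comparison. Without AI9, Lars2, 1110065P20Rik, Gsto1 and Fam132a did.

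On the lower side, 2 of the genes picked by the same rule belonged to the response to low oxygen. Bnip3 (chr7:146082519-146101202, minus strand), a mitochondrial protein of mitophagy, was at 22.8, 27.0, 31.0, 29.1 and 28.6 FPKM in the AN P lines. It was at 32.8 FPKM in AI9, just above them, and at 63.1 and 64.8 FPKM in GS4 and GS9. Egln3 (chr12:55279968-55304847, minus strand), a prolyl hydroxylase that marks HIF proteins for degradation and is itself a HIF target, was at 5.71 to 9.80 FPKM in AN P, 10.2 FPKM in AI9 and 18.3 and 18.0 FPKM in GS4 and GS9. The log2 differences were -0.87 ± 0.21 for Bnip3 and -0.93 ± 0.21 for Egln3 (SE, adjusted p = 0.734 each in limma's test). Without AI9 the adjusted p was 0.0188 and 0.0363. In the F lines both were higher on average in AN than in AI, by 0.59 and 0.53 on the log2 scale, and the difference between P and F lines was -1.46 for each (adjusted p = 0.265).

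Their promoters are shown with the core of the HIF site, ACGTG or GCGTG on either strand, in capitals. Both are from RefSeq (GRCm38.p6), Bnip3 at chr7:138909457-138909756 and Egln3 at chr12:54203825-54204124, each on the minus strand and printed in the direction of transcription. Bnip3 holds 5 matches, of which 2 overlap in CACGTG, and Egln3 holds 1. Of 32851 RefSeq promoters of 300 bases, 43.8% hold at least 1 match.
Bnip3: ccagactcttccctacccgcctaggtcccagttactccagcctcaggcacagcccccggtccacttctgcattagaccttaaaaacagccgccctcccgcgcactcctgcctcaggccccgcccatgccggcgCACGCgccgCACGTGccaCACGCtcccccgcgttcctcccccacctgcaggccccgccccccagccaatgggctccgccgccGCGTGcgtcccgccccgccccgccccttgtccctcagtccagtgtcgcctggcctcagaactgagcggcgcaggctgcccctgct
Egln3: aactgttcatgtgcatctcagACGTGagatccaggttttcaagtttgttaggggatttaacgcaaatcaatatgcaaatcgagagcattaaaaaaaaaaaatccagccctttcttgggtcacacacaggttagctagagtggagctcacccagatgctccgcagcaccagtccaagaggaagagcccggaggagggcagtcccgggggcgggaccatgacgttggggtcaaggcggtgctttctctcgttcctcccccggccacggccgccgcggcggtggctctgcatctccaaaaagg

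The wider list of 28 tested hypoxia and glycolysis genes was lower in AN P than in AI P on average. Only Vegfa was higher on average in AN P, against 46.4% of all genes tested, and the median log2 difference was -0.22, where that of all genes was -0.02. Of the 28, 6 had an unadjusted p under 0.05, each with AN P lower, where 2.24% of all genes did, and 0 passed adjustment. The differences were larger against GS4 and GS9 (median -0.31) than against AI9 (median -0.15). Ankrd37, a HIF target on chromosome 8, was at 4.55 to 8.02 FPKM in AN P, 7.08 in AI9, 23.1 in GS4 and 12.2 in GS9. Ndrg1 was at 5.54 to 9.42 FPKM in AN P and 9.10 to 10.8 FPKM in AI P, with AN6 inside the AI P range. Among the glycolytic enzymes, Pgk1 was at 629 to 848 FPKM in AN P, 752 in AI9, 1152 in GS4 and 951 in GS9. In 22 of the 28 genes GS4 or GS9 was the highest of the 8 lines, where this held for 5836 of all 11760 genes tested. Of the 25 that matched a RefSeq promoter, 20 (80%) held an ACGTG or GCGTG match. In the F lines the median was -0.03.

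Other genes lower in AN P by the same rule were Gm4013, Stra13, Cxcl1, Dnahc8, Snrpd2, Ndufs5, Upf2 and Rpl23a. Cxcl1, a neutrophil chemokine, was at 3.57 to 8.49 FPKM in AN P, 9.58 in AI9, 18.0 in GS4 and 25.2 in GS9 (log2 difference -1.22 ± 0.31, SE, adjusted p = 0.734; 0.0456 without AI9). Snrpd2, a core protein of spliceosomal particles, was at 897 to 1089 FPKM in AN P and 1270 to 1615 FPKM in AI P, and it was also lower on average in AN F (904 ± 137 FPKM) than in AI F (1176 ± 122 FPKM; SD, n = 4 each). Rpl23a, a ribosomal protein gene with 7 named pseudogenes, was at 2429 to 2636 FPKM in AN P and 3020 to 4289 FPKM in AI P. It also holds snoRNA genes within it. Gm4013 was not found in the annotation used here.

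**Figure D3:**
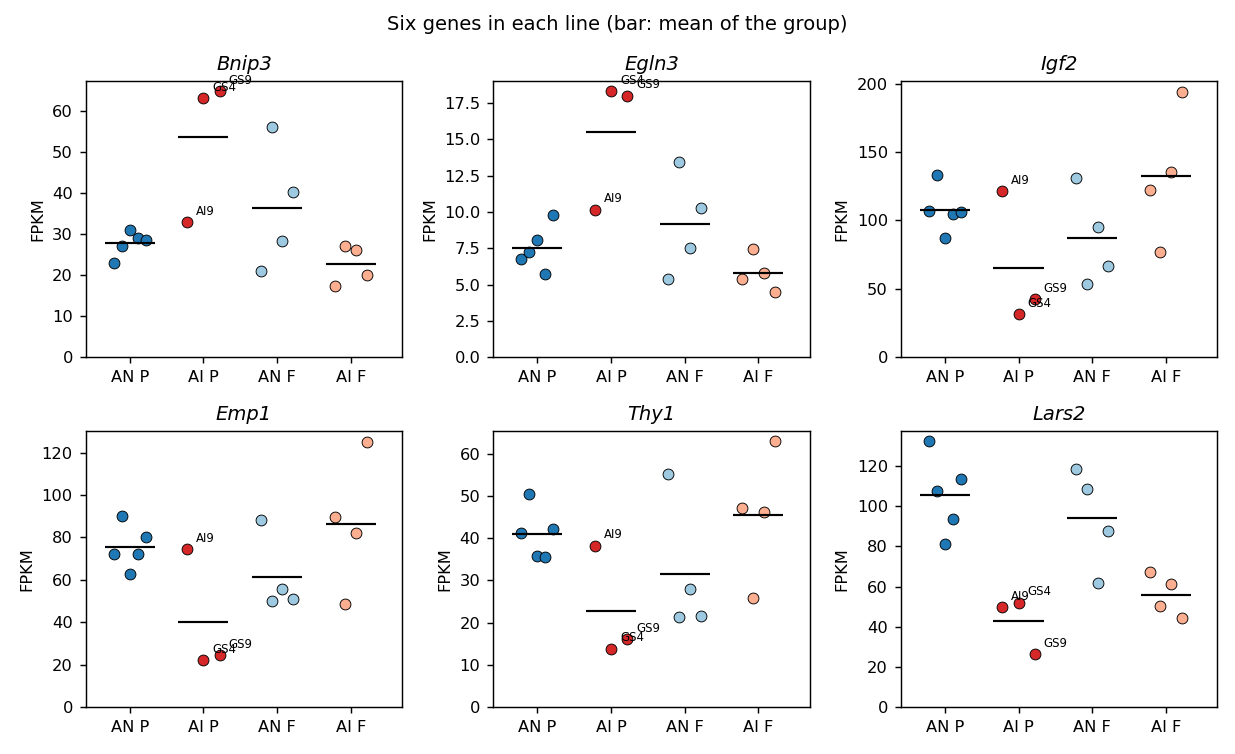
FPKM (vertical axis) of Bnip3, Egln3, Igf2, Emp1, Thy1 and Lars2 in each line of the 4 groups, 1 point per line and a bar at the group mean. AI9 lies at the edge of the AN P lines for Bnip3 and Egln3 and inside them for Igf2, Emp1 and Thy1, with GS4 and GS9 apart from both, while for Lars2 all 3 AI P lines lie below AN P.

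The genes called without AI9 included genes of fibroblasts and their matrix, among them 12 of the 141 on a list of fibroblast and feeder genes. Emp1, an epithelial membrane protein, was at 72.4, 90.2, 62.9, 72.3 and 80.3 FPKM in the AN P lines and 74.4 in AI9, but at 22.0 and 24.3 FPKM in GS4 and GS9 (adjusted p = 0.0188 without AI9). Cd248, a marker of stromal cells, was at 22.3 to 31.8 FPKM in AN P, 25.6 in AI9, 8.59 in GS4 and 8.35 in GS9. Thy1, a surface marker of fibroblasts, was at 35.5 to 50.6 FPKM in AN P, 38.2 in AI9, 13.8 in GS4 and 16.1 in GS9. Igf2, the imprinted growth factor, followed the same order, at 87.5 to 133 FPKM in AN P, 121 in AI9, 31.6 in GS4 and 42.4 in GS9. Gsn, Fkbp10, Lbh and Klhdc8a, which complete the 8 genes with the smallest p among those higher in AN P, did so too. All of these lay in AI9 within the AN P range.

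Of the 37 fibroblast and feeder genes listed, 36 were tested, and all 36 were higher on average in AN P, with a median log2 difference of 0.70. In each of the 36 the lowest of the 8 lines was GS4 or GS9, where this held for 4698 of all 11760 genes tested. Against GS4 and GS9 the median was 1.18, and 12 of the 36 were called higher, where 1.2% of all genes were, including Vim, Acta2, Col5a1, Col6a1, Col6a2 and Col6a3. Against AI9 the median was -0.27 and 5 of the 36 were higher in AN P. The summed FPKM of the list was 2710 to 5016 in AN P, 4477 in AI9, 1496 in GS4 and 1492 in GS9. It was 2308 to 3780 in AN F and 2794 to 5178 in AI F, and 3 of the 36 were higher on average in AN F. For 2 of the 36, Lum and Dcn, GS4 was the highest line and GS9 the lowest. Lum was at 1.31 to 2.34 FPKM in AN P, 1.80 FPKM in AI9, and 2.79 and 1.05 FPKM in GS4 and GS9. Dcn was at 5.15 to 9.55 FPKM in AN P, 6.38 in AI9, 11.6 in GS4 and 3.64 in GS9. With the mean of this list as a covariate in the fit, the median over the 3 Dlk1-Dio3 genes tested was 1.49, beside 1.47 without it, and that of the hypoxia and glycolysis genes was -0.22 with and without it. The core pluripotency median went from -0.21 to -0.04 and the naive one from -0.20 to -0.05. Bnip3 went from -0.87 to -0.50, Egln3 from -0.93 to -0.65 and Gsto1 from 0.65 to 0.37 on the log2 scale. The covariate is a mean from these same libraries, chosen after the data were seen. With it, the adjusted p of Meg3 was 0.9996 in limma's test. Of the 141 genes higher in AN P without AI9, 5 were also higher on average in AN F than in AI F, where 54.1% of all genes were. GS32, derived earlier like GS4 and GS9, lay below the AN P range for 3 of them. The part of feeder cells in these differences was not tested.

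**Figure D4:**
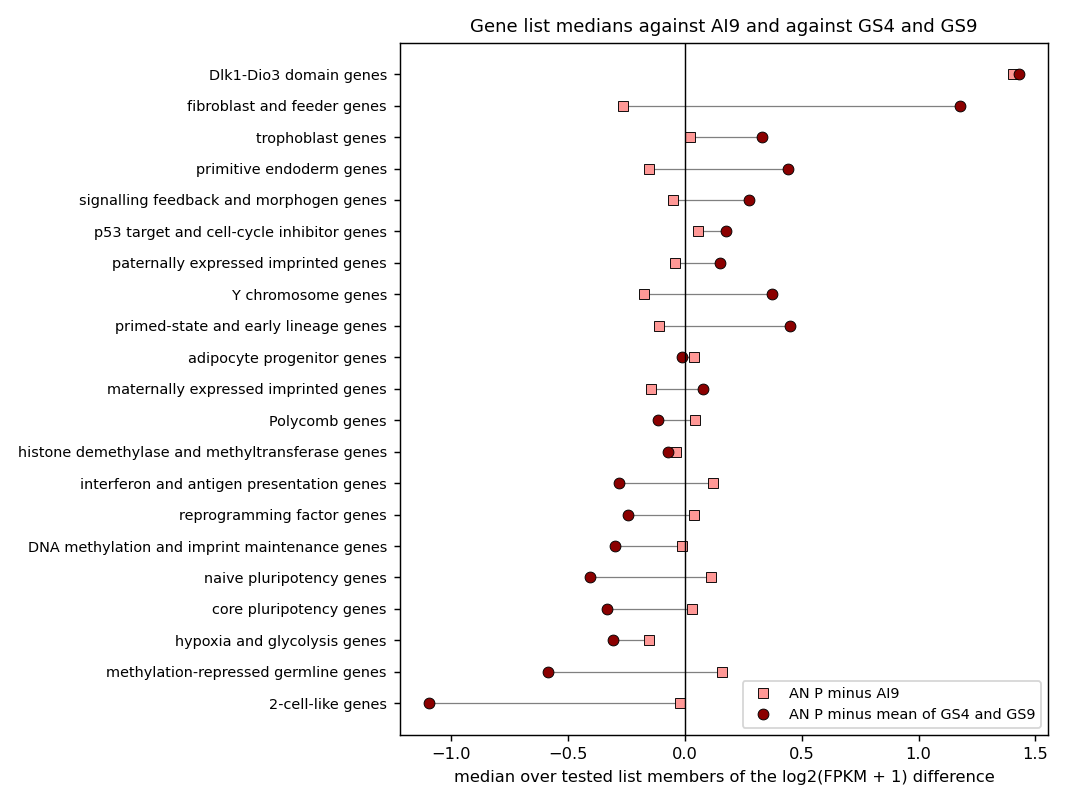
Median over the tested members of each gene list of the log2(FPKM + 1) difference (horizontal axis) of the AN P mean from AI9 (squares) and from the mean of GS4 and GS9 (circles). The Dlk1-Dio3 genes stand at 1.40 and 1.43, while the fibroblast genes stand at -0.27 against AI9 and 1.18 against GS4 and GS9.

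The 32 genes lower in AN P without AI9 had smaller differences, with a median log2 difference of -0.76 against GS4 and GS9, beside 1.06 for the 141. Magohb, an exon junction protein, was at 31.8 to 36.4 FPKM in AN P, 27.0 in AI9 and 67.0 and 71.6 FPKM in GS4 and GS9. Tdgf1, a co-receptor of Nodal in pluripotent cells, was at 525 to 672 FPKM in AN P, 543 in AI9, 1001 in GS4 and 1134 in GS9. Cyct, the testis form of cytochrome c, was at 3.15 to 6.59 FPKM in AN P, 3.39 in AI9, 17.6 in GS4 and 13.0 in GS9. Fam183b, Bcas1 and 2410076I21Rik, at 0.548 to 1.82 FPKM in AN P, were at 2.18 to 3.92 FPKM in GS4 and GS9.

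The factors used for reprogramming overlapped between the groups. The values are per gene name, so reads from the inserted reprogramming factors could not be told apart from those of the genes themselves. Pou5f1 was at 879, 771, 862, 657 and 903 FPKM in the AN P lines and at 748, 1106 and 1222 FPKM in AI9, GS4 and GS9, with a log2 difference of -0.31 ± 0.18 (SE, adjusted p = 0.734 in limma's test). Sox2 was at 153 to 241 FPKM in AN P and 175 to 284 FPKM in AI P. For both, GS4 and GS9 were above all AN P lines and AI9 was among them. Klf4 was at 40.0 FPKM in AN6 and 56.8 to 66.0 FPKM in the other 7 lines. Myc lay between 10.7 and 17.7 FPKM in all 8. Nanog was at 78.1 to 98.0 FPKM in AN P, 102 in AI9, 95.4 in GS4 and 131 in GS9.

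Of 18 core pluripotency genes 2 were higher on average in AN P, and of 22 naive pluripotency genes 4 were, with medians of -0.21 and -0.20. None passed. Single lines set much of this. AN6 was the lowest of the 8 lines in 19 of the 22 naive genes and GS4 the highest in 16. Over all 11760 genes tested, AN6 was the lowest in 2570 and GS4 the highest in 2633. Without AN6 the naive median was -0.03, and without GS4 it was -0.01. Zfp42 (Rex1), a marker of the naive state, was at 70.6 FPKM in AN6, 123 to 166 FPKM in the other AN P lines, 127 in AI9, 145 in GS9 and 445 in GS4. Esrrb was at 20.01 FPKM in AN6 and 35.5 to 54.6 FPKM in the other 7. At the same time AN6 held the highest values of Krt8 (662 FPKM, others 17.8 to 156) and Krt18 (469 FPKM, others 11.3 to 86.4), keratins of simple epithelia. Cer1, a secreted Nodal antagonist, was at 6.37 FPKM in AN6 (others 0.211 to 2.50), and Wnt3, a ligand of the primitive streak, at 10.8 FPKM (others 0.781 to 5.18).

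The 2-cell-like genes, a set active in the 2-cell embryo and in a few cells of pluripotent cultures, had the lowest median of all lists (-0.74; 0 of 8 tested members higher in AN P). Zscan4c was at 0.350 to 4.28 FPKM in AN P, with AN7 highest, 1.83 in AI9, 1.62 in GS9 and 12.8 in GS4. GS4 was the highest line in 7 of the 8, and without GS4 the median was -0.07. Over all 11760 genes tested, GS4 was the highest line in 2633, to be set beside this count and those below. The Zscan4 genes are near-identical copies, so the split of reads among them is uncertain. The germline genes that DNA methylation keeps silent gave a median of -0.34, with 2 of 15 higher in AN P and GS4 highest in 11. Tex19.1 was at 17.0 to 45.0 FPKM in AN P, 29.8 in AI9, 26.0 in GS9 and 90.0 in GS4. Without GS4 the median was 0.02. Dnmt3l, a cofactor of de novo DNA methylation, was at 35.8 FPKM in AN6, 79.1 to 213 FPKM in the other AN P lines, 97.7 in AI9, 125 in GS9 and 279 in GS4. GS4 was also the highest line in 13 of 24 interferon and antigen presentation genes, with Usp18 at 21.5 FPKM (1.33 to 6.46 in the other 7) and Oas1a at 13.2 FPKM (1.29 to 2.11 in the other 7).

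The medians of the remaining lists lay between -0.19 and 0.30. Of 20 p53 target and cell-cycle inhibitor genes 14 were higher on average in AN P (median 0.17). Of the 20, 4 (Cdkn2b, Phlda3, Cdkn2a and Cdkn1a) had an unadjusted p under 0.05 with AN P higher, where 3.21% of all genes did. The same held for 3 of the 12 primitive endoderm genes tested, a list with a median of -0.16 against AI9 and 0.44 against GS4 and GS9. Cdkn2a, which encodes the p16 and p19 inhibitors, was at 14.6 to 19.25 FPKM in AN P, 12.0 in AI9, 16.7 in GS4 and 6.54 in GS9. Polycomb genes (median -0.06), DNA methylation and imprint maintenance genes (-0.19), histone demethylase and methyltransferase genes (-0.07), interferon genes (-0.11), signalling genes (0.17), primed-state genes (0.13), primitive endoderm genes (0.21), trophoblast genes (0.30), adipocyte progenitor genes (0.02) and the 3 tested Y chromosome genes (0.15) held no gene that passed in the full comparison. Several of these medians rested on 1 line. Without GS4 the interferon median was 0.16, the primed-state median -0.14, the DNA methylation median -0.04, the signalling median 0.04, the trophoblast median 0.07 and the Y chromosome median -0.25. Without AN6 the trophoblast median was 0.06, the primed-state median -0.07 and the DNA methylation median -0.08. Of the 20 adipocyte progenitor genes, 13 averaged 1 FPKM or more and the list summed to 107 to 174 FPKM per line, while Pparg was at no more than 0.332 FPKM and Dpt at no more than 0.677 FPKM. Without AI9, Tdgf1, which is on the signalling and core pluripotency lists, and Col4a1 and Col4a2 of the primitive endoderm list passed, the first lower and the others higher in AN P.

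Chromosome 8 stood apart in GS4 and AN7. Over its 632 tested genes, GS4 was 0.40 above the mean of the 6 lines other than GS4 and AN7 (median, log2 scale), where its other autosomes lay between -0.07 and 0.03. AN7 was 0.18 above, with its other autosomes between -0.05 and 0.01. In 5 blocks of 126 or 127 genes along the chromosome, the median was 0.32 to 0.48 in GS4 and 0.11 to 0.24 in AN7. GS4 was the highest of the 8 lines for 57.3% of the genes of chromosome 8, and for 2633 of all 11760 genes tested. The chromosome held 632 of the 11617 tested genes that could be placed. It held 4 of the 192 genes with AN P above AI P and 6 of the 201 with AN P below. It held 7 of the 32 genes lower and 5 of the 141 higher in AN P without AI9. Among the 7 were Ankrd37, Setd6, Cfdp1 and Gins3. GS9 had a higher X chromosome than the other lines, by a median of 0.16 over the mean of the 8. Its autosomes other than chromosome 8 lay between -0.01 and 0.11 on the same measure, so the X was not far apart from them. DNA copy number was not measured here.

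**Figure D5:**
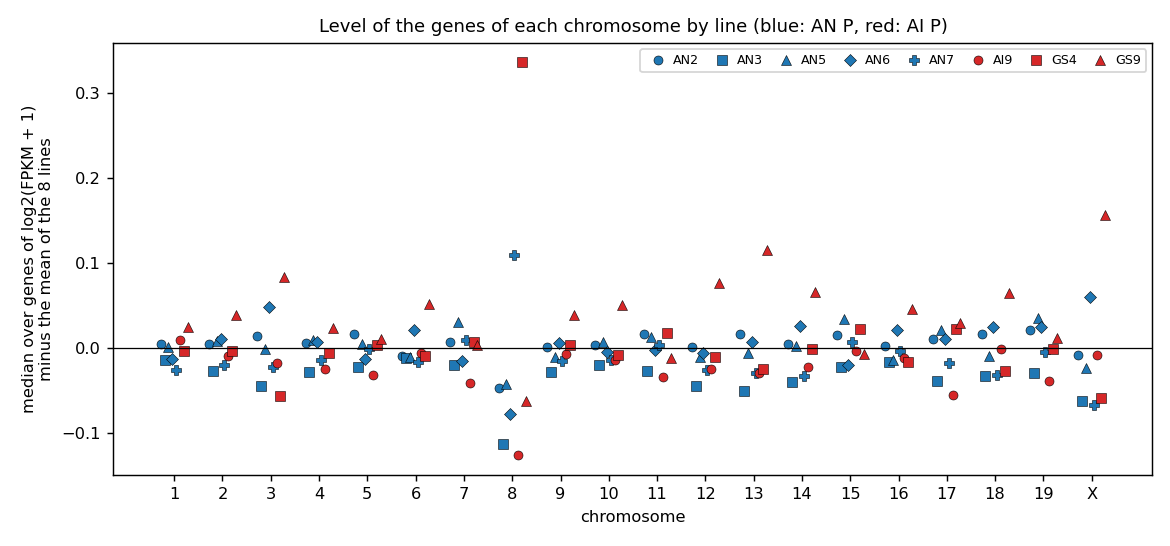
Median over the tested genes of each chromosome (horizontal axis) of log2(FPKM + 1) minus the mean of the 8 lines (vertical axis), 1 point per line with AN P in blue and AI P in red. On chromosome 8, GS4 lies at 0.34 and AN7 at 0.11, and the other 6 lines lie between -0.13 and -0.04.

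Genes whose groups did not overlap were unevenly spread over base composition and length. Of genes in the highest quintile of exon GC content, 4.38% had every AN P line above every AI P line, against 0.263% in the lowest quintile. The reverse order was seen for genes with AN P below, at 0.394% in the highest and 3.33% in the lowest quintile. The trend was largest in GS9: the median of AN P minus GS9 was -0.22 in the lowest GC quintile and 0.20 in the highest. It was -0.04 and 0.07 for GS4, and -0.004 and 0.06 for AI9. By exon length, AN P was above in 2.54% of the shortest and 0.387% of the longest quintile, and below in 1.16% and 2.62%. Between these quintiles the median of AN P minus AI9 went from 0.11 to -0.08, and that of AN P minus GS9 the other way, from -0.21 to 0.06. Values were known for 97.0% of the tested genes for GC content and 98.8% for length. The part of base composition in the single differences was not tested. By GC content of its exons, Lars2 (51.2%) lay in the middle quintile, Dlk1 (53.6%) in the one above it, Bnip3 (41.6%) in the lowest and Rpl26 (56.5%) in the highest. GC content was taken from protein-coding transcripts only, so Meg3 and Rian had no value and could not be placed.

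The F lines, which share no sample with this comparison, were mostly on the other side for these genes. Of the 192 genes with every AN P line above every AI P line, 65 (33.9%) were higher on average in AN F than in AI F, where 54.1% of all genes were. Of the 201 genes on the other side, 50 (24.9%) were lower in AN F, against 45.9% of all genes. AN F and AI F did not overlap in the same direction for 3 of the 192 and 2 of the 201, near the shares over all genes (2.11% and 1.11%). The difference between P and F lines was tested as an interaction over all 16 lines, and 0 of 11763 genes (percent called: 0) passed in limma at an adjusted p under 0.05. The lowest adjusted p was 0.265. At an unadjusted p under 0.05, AN minus AI was more positive in P than in F lines for 1007 genes and more negative for 1045. These counts give the sign of the term and not the size of the difference.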

How the data were processed

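RNA of 16 mouse lines was read from 1 end, with 1 library per line. According to the study and the submitters' processing notes, reads were mapped to mm9 with TopHat2 2.1.0 and summarised with Cufflinks 2.2.1. The authors deposited FPKM values per gene name and line. Read numbers were not analysed here, so absolute depth is unknown. Relative depth came from the step between low values, and sampling error cannot be given per gene.

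Lines were matched by title, and their state is that assigned by the study. AN P and AI P were compared as log2(FPKM + 1) with limma 3.58.1 in R 4.3.3 (mean-variance trend, Benjamini-Hochberg adjustment, threshold 0.05) over genes averaging 1 FPKM or more in the 8 lines, without names starting with Mir, Snord, Snora, Scarna or Rnu. The difference between P and F lines was an interaction term over 16 lines. P-values measure the spread between lines. The members, the 21 gene lists and the tests were chosen with earlier results of these data known. Named genes were, in each direction, those that passed or else the 10 with the smallest p among genes whose groups did not overlap, the Dlk1-Dio3 genes, Grb10, the reprogramming factors, and list members; the genes without AI9, the values of other list members and those on AN6 were picked after the values were seen. The mm9 annotation (GENCODE vM1) matched 95.7% of gene names. Cuffdiff, used by the authors, needs reads and was not run. The fits were tested on simulated data. Tables were handled in Python 3.11.15.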

Additional observations from a re-analysis of the deposited data

Results flagged for a closer look

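In 49 groups of 5 AN P lines, 1 for each named gene or gene list, the highest or lowest line was set against the others by Dixon's criterion. It stood apart in 5, where chance gives about 2.45. AN6 was the low line in 4 of them. Klf4 was at 40.02 FPKM in AN6 (58.5 to 66.0 in the other AN P lines), and Upf2, a factor of nonsense-mediated decay, at 14.72 FPKM (16.8 to 17.6). The mean log2(FPKM + 1) of the naive pluripotency genes was 3.827 in AN6 (4.48 to 4.65), and that of the histone demethylase and methyltransferase genes was 4.278 (4.53 to 4.61). In the other, Gm4013 was at 1.523 FPKM in AN5 (0.849 to 0.996).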

How the results depend on the processing

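The count of 0 genes at an adjusted p under 0.05 held in every fit run except those without AI9 and with small RNA gene names kept, and the lowest adjusted p of the others was 0.141 (fit of all 16 lines). Leaving out 1 line in turn gave 0 to 173 genes, 0 to 141 higher and 0 to 32 lower in AN P, and only the fit without AI9 gave any. With small RNA gene names kept, 2 genes were called, both higher in AN P, and the lowest adjusted p in limma's test was 0.000222. The count of 0 thus held only with these names left out. At an unadjusted p under 0.05, 642 genes were called, 378 higher and 264 lower, and 2052 in the comparison of P with F lines. Over 27 single genes and 20 settings, 518 values kept their direction and side of the threshold, 8 passed it (all without AI9) and 10 changed direction. Leaving out 1 line in turn, the log2 difference ranged from -0.0191 (without GS9) to 1.396 (without AI9) for Grb10, from -0.09096 to 0.08581 (without AN6) for Klf4, and from -0.04899 (without GS9) to 0.1642 for Myc. Grb10 was -1.29 against AI9 alone and -0.4595 with the fibroblast gene mean as a covariate. Against AI9 alone, Pou5f1 was 0.1125, Sox2 0.1518 and Myc -0.07722. Klf4 was 0.01892 after quantile normalization and Myc was -0.01891 with the fibroblast covariate. Meg3 ranged from 1.22 to 1.70 and Rian from 1.07 to 1.87. The fibroblast covariate and the fit without chromosome 8 were chosen after seeing the data. No paired analysis was possible because the lines carry no shared replicate numbers.

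With 3 AI P lines of 2 derivations, passage 6 to 17 and 1 library each, AI9 against GS4 and GS9 cannot be told apart from derivation. The FPKM table holds no counts, so genes near the filter carry an unknown counting error.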
